A study of Mus musculus with 7 samples.

Results

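The MAGE (melanoma antigen) gene family was followed in mouse oocytes lacking mitofusin 2 and in wild-type oocytes. The members were the rows named Maged1, Maged2, Mageh1, Magee1, Magel2, Ndn and Nsmce3, and all 7 were found among the 26019 gene rows of the deposited table. The family was chosen by the KO and WT values of Maged1 in these same data, where it stood high in the knockout libraries. The KO and WT values of the members are therefore a description, given without a test of their own. RNA was measured by Smart-Seq2, which amplifies full-length cDNA, in 7 libraries of 5 oocytes each from secondary follicles of C57BL/6J mice. The KO group had 3 libraries, from mice without Mfn2 per the series title and design text, and the WT group had 4. The genotype label and the protocol name Mfn1 instead. The mice were 8 weeks old by the protocol but P1 by the age label, and the design text speaks of 3 mice in each group. The labels do not say whether the deletion was limited to oocytes, nor which mouse gave each library, so that p-values measure the spread between these samples only, which may be technical.

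MAGE proteins share a winged-helix MAGE homology domain, through which many of them bind RING-type ubiquitin ligases and change what these ligases act on. The listed members belong to the broadly expressed branch of the family, known best from neurons and embryos. Other MAGE genes, the cancer-testis branch, are read mainly in germ cells. Growing oocytes store much of the RNA that they make.

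Maged1, Maged2, Mageh1 and Magee1 lie on the X chromosome, and Ndn, Magel2 and Nsmce3 on chromosome 7. In GRCm38, Maged1 (ENSMUSG00000025151.16) spans bases 94535474 to 94542143 of the minus strand and overlaps no other annotated gene. Maged2 (ENSMUSG00000025268.15) spans X 150806370 to 150814345, also on the minus strand, and overlaps Gm24907. Ndn and Magel2 overlap Gm32061, and neither Gm24907 nor Gm32061 has a row in the deposited table. Nsmce3 (ENSMUSG00000070520.4) spans 64867052 to 64872997 of chromosome 7, minus strand, and overlaps Fam189a1. None of the 75-base stretches of 6 members occurred in transcripts of another gene, and 0.743% of those of Maged2 occurred in its relative Tro. Promoter windows of 300 bases, from 250 before to 50 after an annotated start, were taken from RefSeq (GRCm38.p6) and matched all 7 members. They are shown for Maged1 and Maged2, the members with the highest mean levels in KO relative to WT among those with over 100 reads, and for the most abundant member. Capitals mark GCATGCGC on either strand and TGACGTCA, the letters of the cyclic AMP response element.
Maged1, chrX:94541976-94542275, minus strand: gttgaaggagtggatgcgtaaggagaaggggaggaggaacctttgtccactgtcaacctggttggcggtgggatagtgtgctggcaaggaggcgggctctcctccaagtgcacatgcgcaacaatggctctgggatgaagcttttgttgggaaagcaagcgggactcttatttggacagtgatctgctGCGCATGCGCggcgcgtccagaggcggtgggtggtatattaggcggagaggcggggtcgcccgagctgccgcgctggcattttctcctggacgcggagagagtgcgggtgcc
Maged2, chrX:150812953-150813252, minus strand: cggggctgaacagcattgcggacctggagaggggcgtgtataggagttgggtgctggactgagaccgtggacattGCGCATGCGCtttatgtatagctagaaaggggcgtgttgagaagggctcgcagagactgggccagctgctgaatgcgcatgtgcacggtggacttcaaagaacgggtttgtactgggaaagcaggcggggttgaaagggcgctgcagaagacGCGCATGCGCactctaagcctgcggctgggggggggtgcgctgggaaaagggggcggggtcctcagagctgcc
Nsmce3, chr7:64872991-64873290, minus strand: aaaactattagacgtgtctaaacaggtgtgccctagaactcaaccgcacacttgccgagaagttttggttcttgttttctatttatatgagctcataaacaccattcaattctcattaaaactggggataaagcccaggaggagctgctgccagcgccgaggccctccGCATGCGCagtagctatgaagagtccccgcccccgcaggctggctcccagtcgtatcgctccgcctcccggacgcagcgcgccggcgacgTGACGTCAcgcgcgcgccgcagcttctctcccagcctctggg

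GCATGCGC preceded directly by GC is a palindrome that holds GCATGCGC on both strands. This longer motif, which matches the core that nuclear respiratory factor 1 is known to bind, was found once in the Maged1 window. The Maged2 window held it 2 times, as did a further Maged2 window that overlaps this one, whereas the 2 Maged2 windows that start farther upstream held none. The remaining 5 members had no such palindrome. The shorter GCATGCGC was found in windows of 4 of the 7 members, namely Maged1, Maged2, Ndn and Nsmce3. Of all 32851 promoter windows, 0.971% held the palindrome, 2.71% held GCATGCGC and 1.79% held TGACGTCA, each searched on both strands. Counted by gene, with all windows of a gene together, the shares of 27025 genes were 1.07%, 3.05% and 2.03%. These motifs were chosen after the windows had been read, and a match is a description of letters, not of binding.

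The libraries held 6676076 to 8343915 reads in genes, and 3 reads were worth 2.73 to 3.28 normalised counts. Mfn2 had 7.27, 4.55 and 7.66 normalised counts in KO libraries, against 35.3, 35.1, 15.0 and 29.2 in WT libraries, and was lower in KO by limma (log2 fold change -1.94, SE 0.40, adjusted p = 0.00571). Mfn1 did not pass (0.20, SE 0.16, limma adjusted p = 0.499). Across all genes, 1291 of 19227 tested were called by limma, that is, passed an adjusted p of 0.05, with 594 higher and 697 lower in KO. All 12 oocyte markers were detected in every library, but their levels were not even. Their sum was 194042, 308779 and 218987 in KO 1 to KO 3, against 167674 to 227161 in WT. Of the 12, 8 had positive and 4 negative log2 fold changes, and limma called 0, edgeR 1 and DESeq2 3. Nlrp5 had 16810, 33914 and 29642 normalised counts in KO 1 to KO 3, against 9108 to 15964 in WT, so KO 2 was highest here too. Defining granulosa cell markers varied between libraries. Inha, the inhibin alpha subunit of granulosa cells, had 54.5, 395 and 338 normalised counts in KO 1 to KO 3, against 66.7, 18.1, 23.4 and 11.9 in WT 1 to WT 4. The sum of 15 granulosa markers was 474, 747 and 772 in KO 1 to KO 3, against 434 to 473 in WT (2-sided exact permutation test, p = 0.0286, the smallest that 35 splits can give). All 15 were in the table and 13, 15 and 14 were above 0 in KO 1 to KO 3, against 8 to 12 in WT. Of the 12 granulosa markers tested, 10 had positive and 2 negative log2 fold changes, and limma called 1, Cyp19a1, the aromatase gene, which was lower in KO. Cyp19a1 averaged 78.2 ± 25.1 normalised counts in KO (SD, n = 3) and 179 ± 28.4 in WT (SD, n = 4), and each KO library, KO 2 lowest, lay below each WT library. By limma its adjusted p was 0.00251, with a log2 fold change of -1.23 (SE 0.23). The other marker with a negative value was Inhba (-1.30, SE 0.65), which had at most 2.73 in KO and 7.48 in WT. Fshr, the receptor of follicle-stimulating hormone, followed another order, with 49.97, 9.09 and 6.56 in KO 1 to KO 3, against 14.3, 1.07, 39.3 and 2.17 in WT 1 to WT 4. Without Cyp19a1 and Nr5a2, which every WT library held at over 100, the sums were 169, 525 and 484 in KO, against 41.5 to 131 in WT. The sum of the immune markers was 187 to 275 in KO, against 540.2 to 582 in WT, nearly all of it C1qb (173 to 248 in KO, against 513 to 555 in WT), with Cd68 (9.85 to 27.3 in KO, against 10.3 to 14.1 in WT) and Csf1r (0 to 5.45 in KO, against 3.20 to 12.2 in WT) far lower. The other immune markers found, C1qa, Tyrobp and Fcer1g, were at 0 in KO and at most 3.74, 0.935 and 3.25 in WT. Theca and stroma markers, led by Star, Cyp11a1 and Dcn, summed to 10.9 to 23.6 in KO, against 15.0 to 28.8 in WT. By the same 2-sided exact permutation test, p was also 0.0286 for the immune sum. It was 0.286 for the oocyte sum, 0.286 for the endothelial sum and 0.743 for the theca and stroma sum. In such libraries, the cell type that a transcript such as C1qb or Cyp19a1 came from, oocytes included, is not known. Fewer cells of a type and less RNA per cell cannot be told apart either.

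Maged1 encodes a protein, also called NRAGE, that binds the neurotrophin receptor p75 and homeodomain proteins. Its levels were 85.4, 384 and 148 normalised counts in KO 1, KO 2 and KO 3, against 36.2, 52.2, 24.3 and 47.7 in WT 1 to WT 4. KO 2 stood highest and KO 1 lowest among the knockout libraries, and each KO library lay above each WT library, as was so for 9.37% of all tested genes. The means were 206 ± 157 in KO (SD, n = 3) and 40.1 ± 12.5 in WT (SD, n = 4), a log2 fold change of 2.11 (SE 0.48), or 4.31-fold, on the log2(normalised count + 1) scale. The spread between KO libraries was thus wide, and the SD in KO was above the whole range of WT. Without KO 2 the log2 fold change was 1.52, and with KO 1 as the lone knockout library it was 1.13. Of the 5 members tested, Maged1 alone was called, where 6.71% of all genes were called. Since this contrast chose the family, nothing is read from that count. It was 0 when WT 1, WT 2, WT 3, WT 4 or KO 3 was left out, and 2 (Maged1 and Maged2) without KO 1. KO 2 and KO 3, the libraries with most Maged1, also held most Inha, but less Cyp19a1 than any WT library and less Fshr than KO 1, WT 1 or WT 3. The Maged1 log2 fold change was 1.36 (SE 0.84) once the mean of the granulosa markers was a covariate. That mean, in log2(normalised count + 1), was 2.92, 3.96 and 3.87 in KO 1 to KO 3, against 1.97 to 2.86 in WT. Each KO library thus lay above each WT library, and every fit with this covariate separates it poorly from genotype. The part of granulosa RNA in the Maged1 difference was not tested.

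**Figure D1:**
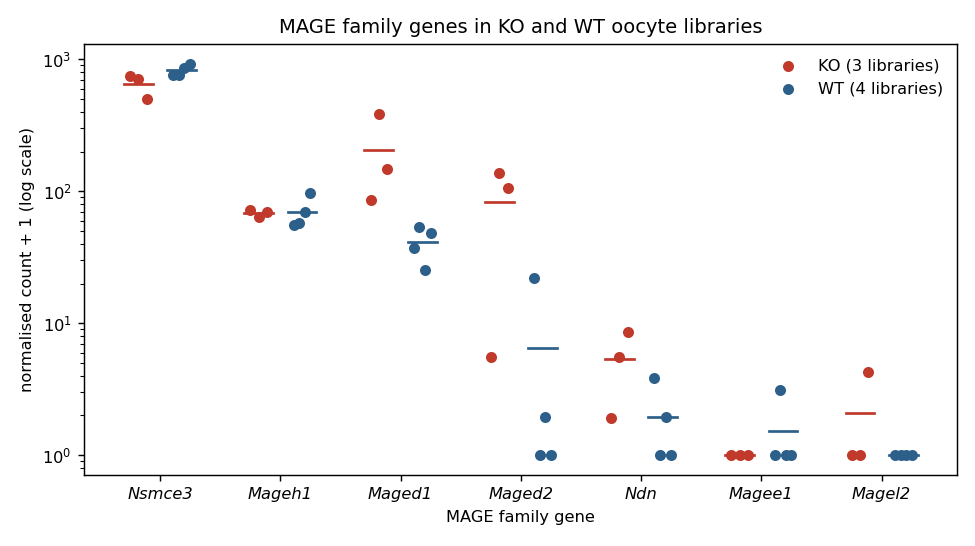
Normalised counts plus 1 on a log axis for each MAGE family gene, with KO points in red left of WT points in blue and a line at each mean. Maged1 has its 3 KO points above its 4 WT points, Maged2 has 2 KO points far above the rest, and Mageh1 has close means, 67.8 in KO and 68.9 in WT.

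Maged2, of the same subfamily as Maged1 and known in humans for salt transport in the kidney, showed a more uneven pattern. It had 4.54, 135 and 105 normalised counts in KO 1, KO 2 and KO 3, against 21.0, 0, 0.935 and 0 in WT 1 to WT 4. It was highest in KO 2 and KO 3, while KO 1 lay below WT 1, so the groups overlapped. The zeros stand for no read, and a count of 0 allows up to 3 reads, or 3.20 and 3.25 normalised counts in WT 2 and WT 4. Mean levels were 81.7 ± 68.5 in KO (SD, n = 3) and 5.48 ± 10.3 in WT (SD, n = 4), and the log2 fold change was 4.08 (SE 1.68). The order of the libraries followed that of Inha at the top, with KO 2 first, then KO 3, WT 1 and KO 1, for Maged2 and for Inha alike. Inha was picked after its values were seen, and not all granulosa markers had this order. Cyp19a1 was lowest in KO 2, and Fshr was highest in KO 1, then WT 3, while 10 of the 12 markers tested had positive log2 fold changes. Once the granulosa mean was a covariate, the log2 fold change of Maged2 was -1.52 (SE 0.93), against 4.08 without it. Here too that mean and genotype are poorly separated. The part of granulosa RNA in the Maged2 values was not tested.

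**Figure D2:**
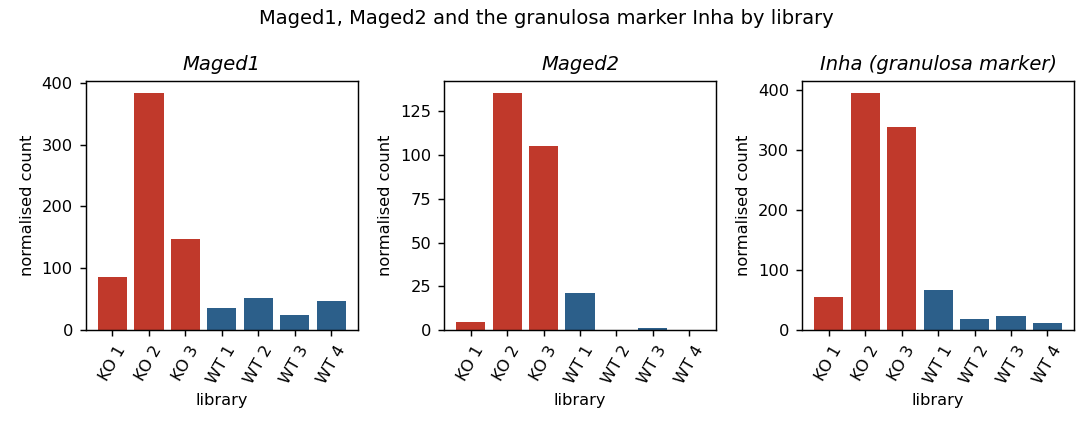
Normalised counts of Maged1, Maged2 and the granulosa marker Inha in each library, KO in red and WT in blue, on linear axes that start at 0 and differ between panels. KO 2 has the tallest bar in each panel and KO 3 the next tallest, while KO 1 is above every WT library for Maged1 but below WT 1 for Maged2 and Inha.

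Mageh1 and Magee1 are the other X-linked members. Mageh1, a small MAGE protein also called APR-1 that binds p75 as well, had 71.8, 62.7 and 68.9 normalised counts in KO libraries, against 54.3, 56.5, 68.2 and 96.4 in WT libraries. The KO values lay inside the WT range, and the log2 fold change was 0.01 (SE 0.24). Magee1, which binds alpha-dystrobrevin in muscle and brain, was near the limit of detection, with 0 reads in all 3 KO libraries and 2 reads in WT 2 as its only reads in WT. It missed the minimum for testing, which was 3 libraries with values of 1 or more. Across the X chromosome, 66 of 730 tested genes were called, or 9.04%, with 38 higher (5.21%) and 28 lower (3.84%) in KO.

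Ndn and Magel2 are imprinted neighbours in the Prader-Willi region of chromosome 7, read from the paternal copy in somatic tissues. Ndn encodes necdin, a growth suppressor that binds E2F1 and p53, and had 0.908, 4.55 and 7.66 normalised counts in KO libraries, against 2.86, 0, 0.935 and 0 in WT libraries. These are 1, 5 and 7 reads in KO and 3, 0, 1 and 0 reads in WT, with overlap between KO 1 and WT 1, and the log2 fold change was 1.45 (SE 0.68). It was -0.97 (SE 1.09) once the granulosa mean was a covariate. Its highest values too were in KO 2 and KO 3, the libraries with most Inha and least Cyp19a1. Magel2, which works with the ubiquitin ligase TRIM27 on endosomes, had 3 reads in KO 3 and 0 in the other 6 libraries, so that no fold change was computed and a difference was not detectable at this depth. Of 6 other genes listed for the region, 3 were in the table and tested, and 0 were called by limma, edgeR or DESeq2, with 0 at an unadjusted p under 0.05. Over all 19227 genes tested limma called 6.71%, and 4194 had an unadjusted p under 0.05, so 0 of 3 is read as no result about the region. The more abundant of these were Ube3a, a ubiquitin ligase gene (582 ± 78.1 in KO and 496 ± 70.2 in WT), and Snrpn, of the splicing machinery (249 ± 23.7 in KO and 222 ± 41.7 in WT; SD, n = 3 and 4). The median log2 fold change of the 3 was 0.18, and that of all genes tested -0.01.

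Nsmce3 encodes the MAGE subunit of the SMC5/6 complex, which guards chromosome structure during DNA repair and meiosis, and was the most abundant member. It had 746, 705 and 503 normalised counts in KO libraries, against 754, 762, 856 and 928 in WT libraries. The groups did not overlap, though KO 1 and WT 1 differed by little. Of all tested genes, 19.2% had groups that did not overlap, 9.83% with KO lower. Mean levels were 652 in KO and 825 in WT, with a log2 fold change of -0.36 (SE 0.15). Without KO 3, its lowest library, the log2 fold change was -0.18, and it was -0.11 (SE 0.27) once the granulosa mean was a covariate. The libraries carry no strand, but Fam189a1, which overlaps Nsmce3, lies on the minus strand too, so that strand would not part their reads. Fam189a1 had 11.6 ± 4.37 in KO and 24.0 ± 2.12 in WT (SD, n = 3 and 4), far fewer counts than Nsmce3.

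Levels of different genes were set side by side per kilobase of annotated exon. In KO libraries Nsmce3 stood first (110 ± 21.9 normalised counts per kilobase), followed by Mageh1 (48.1 ± 3.28), Maged1 (47.2 ± 36.2) and Maged2 (25.2 ± 21.2; SD, n = 3). In WT libraries the order was Nsmce3 (139 ± 14.0), Mageh1 (48.8 ± 13.7), Maged1 (9.21 ± 2.87) and Maged2 (1.69 ± 3.19; SD, n = 4). The per-kilobase ranges of Mageh1 and Maged1 overlapped in KO (44.5 to 50.9 and 19.6 to 88.2) but not in WT (38.5 to 68.4 and 5.59 to 11.99). Those of Maged1 and Maged2 overlapped in KO and in WT, where Maged2 ran from 0 to 6.48, though within each library Maged1 was above Maged2 per kilobase. Ndn, Magee1 and Magel2 averaged 1.18, 0 and 0.236 per kilobase in KO and 0.257, 0.150 and 0 in WT. Their ranges overlapped in WT, while in KO that of Ndn (0.246 to 2.07) lay above Magee1, which was at 0, and overlapped that of Magel2 (0 to 0.709). In WT, Nsmce3 lay above 84.7% of 15680 protein-coding genes, Mageh1 above 72.4%, Maged1 above 49.1% and Maged2 above 29.9%. The exon length of Nsmce3 is 5946 bases in GENCODE M21 and 1359 bases in RefSeq, and its WT level was 607 per kilobase with the shorter length.

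Other MAGE genes were taken from a list of 20, of which 10 were in the table and 5 were tested. Among these 1 rose and 1 fell in KO by limma, where 3.09% of all genes were called higher and 3.63% lower. Magea10, an X-linked gene of the cancer-testis branch, had 342, 150.0 and 243 normalised counts in KO libraries, against 361, 423, 464 and 454 in WT libraries. With GENCODE exon lengths it was the most abundant of the named MAGE genes per kilobase in WT, at 234 ± 25.3 (SD, n = 4). Its groups did not overlap, with KO lower, as was so for 9.83% of all tested genes (log2 fold change -0.87, SE 0.22; limma adjusted p = 0.0253). Mageb16, also X-linked, had 237, 209 and 293 in KO libraries, against 182, 116, 173 and 161 in WT libraries (0.64, SE 0.19; limma adjusted p = 0.0475). Pseudogenes share 54.5% of the 75-base stretches of Mageb16, so its count is uncertain. The call of Magea10 was lost without KO 2, KO 3, WT 2, WT 3 or WT 4 (limma adjusted p up to 0.0942) and that of Mageb16 without KO 1, KO 3 or any 1 of the WT libraries (up to 0.161). Both were lost when the granulosa mean was a covariate (limma adjusted p = 0.969 and 0.920), where the log2 fold changes were -0.12 for Magea10 and 0.31 for Mageb16. That fit called only 3 genes among all tested and separates this mean poorly from genotype, so nothing is read from these losses. Tro, the gene of the adhesion-related protein trophinin, had 42.7 ± 10.9 in KO and 31.5 ± 6.66 in WT (SD, n = 3 and 4) and did not pass. Magea1 lies inside the span of Magea2 on the same strand, so their low counts are uncertain. Neither passed.

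**Figure D3:**
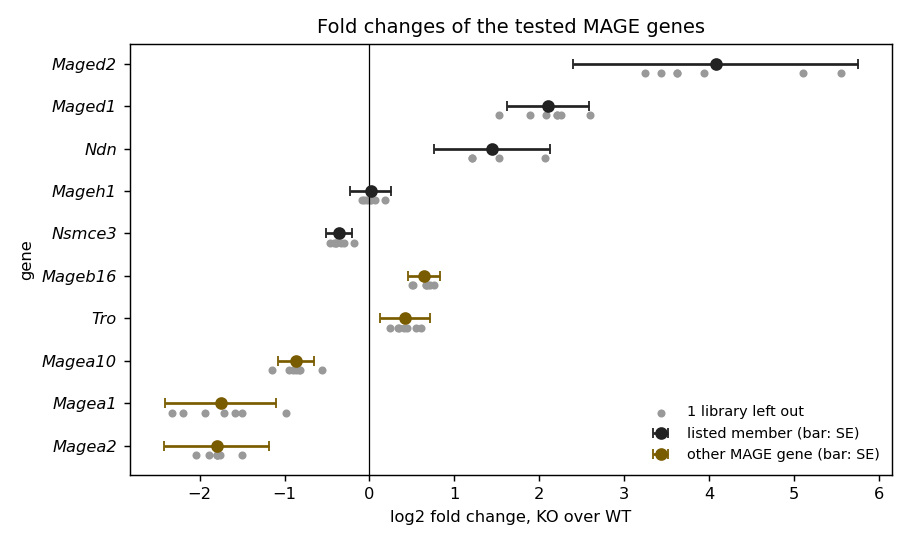
Log2 fold change of KO over WT with its SE for the 5 tested members in black and 5 other MAGE genes in brown, with grey points for fits that left out 1 library. Maged2 has the widest spread, Maged1 stays between 1.52 and 2.60, and Magea10 and Mageb16 lie on opposite sides of 0.

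Of 11 genes for TRIM27, the deubiquitinase USP7, the endosomal WASH complex and the retromer, 3 rose in KO, 0 fell and 8 did not pass by limma, where 3.09% of all genes were called higher. Washc4, a WASH complex subunit, had 113, 147 and 160 normalised counts in KO libraries, against 70.5, 92.7, 76.6 and 92.1 in WT libraries (log2 fold change 0.74, SE 0.21; limma adjusted p = 0.0362). Washc3, another subunit, had 215 ± 20.1 in KO and 139 ± 11.5 in WT (0.62, SE 0.17; limma adjusted p = 0.0359). Vps35, the core of the retromer, had 1371 ± 154 in KO and 970 ± 120 in WT (0.50, SE 0.14; limma adjusted p = 0.0333; SD, n = 3 and 4). For each of these genes every KO library lay above every WT library, as was so for 9.37% of all tested genes. These genes were named because they were called, so that this separation adds nothing to the calls. Vps35 overlaps Orc6, so reads of that gene may be among its counts. All 3 calls were lost without KO 2, KO 3, WT 2 or WT 3, Washc3 and Washc4 without WT 1, and Washc3 and Vps35 without WT 4, with limma adjusted p of up to 0.121. None of the 3 was called by limma when the granulosa mean was a covariate. That fit called only 3 genes among all tested and separates this mean poorly from genotype, so nothing is read from the loss. The replicate block ended the calls of Washc3, Vps35 and Mageb16, and equal library totals ended those of Washc3, Magea10 and Mageb16. Trim27 itself had 1809, 1302 and 1014 in KO libraries, against 1808, 2216, 1992 and 1381 in WT libraries, with overlap between the groups. Its log2 fold change was -0.45 (SE 0.19; limma adjusted p = 0.192), and it was called lower in KO when KO 1 was left out. The median log2 fold change of the 11 was 0.12.

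The SMC5/6 list around Nsmce3 held 8 genes, of which 7 were tested and 0 were called by limma, edgeR or DESeq2, with 2 at an unadjusted p under 0.05. Of all 19227 genes tested, 6.71% were called by limma and 4194 had an unadjusted p under 0.05, so nothing particular to this list is read from its counts, nor from those of the next. The SUMO ligase subunit gene Nsmce2 (3275 ± 540 in KO and 3472 ± 178 in WT) and Smc6, a backbone subunit (1751 ± 347 in KO and 1466 ± 127 in WT; SD, n = 3 and 4), were the most abundant, and the list's median log2 fold change was -0.02. Of 16 genes whose proteins have been reported to bind MAGED1, MAGED2, MAGEE1, MAGEH1 or necdin, 15 were in the table and 13 were tested. Here 0 were called by limma, edgeR or DESeq2, with 2 at an unadjusted p under 0.05 and a median log2 fold change of -0.12. The most abundant were Gnas, the stimulatory G protein alpha subunit that MAGED2 is known to stabilise (2460 ± 1125 in KO and 1772 ± 298 in WT), and E2f4, a cell cycle repressor (878 ± 356 in KO and 979 ± 138 in WT; SD, n = 3 and 4). Pja1, the RING ligase partner of MAGED1, had 598, 846 and 534 in KO libraries, against 558, 603, 486 and 538 in WT libraries, with overlap between the groups.

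**Figure D4:**
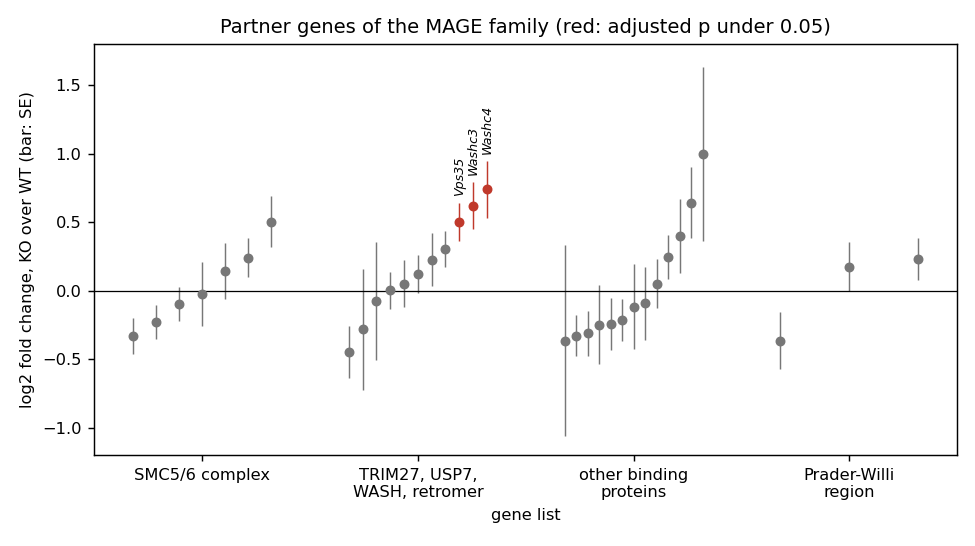
Log2 fold change of KO over WT with its SE for each tested partner gene, by list, with genes that passed an adjusted p of 0.05 in red. The 3 red points are Vps35, Washc3 and Washc4, and the other lists lie on either side of 0.

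Genes with a profile like that of Maged1 were sought among 10013 tested genes with a mean of at least 20 normalised counts. Likeness was the mean absolute difference, over the 7 libraries, between centred log2 values. The closest were Rufy2 (0.322), Myot, a sarcomere protein gene (0.341), Nipsnap3b (0.345), Marcksl1 (0.360), Nat2 (0.386) and Haghl (0.399). Rufy2 had 77.2, 158 and 128 normalised counts in KO libraries, against 41.0, 51.1, 27.1 and 50.9 in WT libraries, with KO 2 highest and WT 3 lowest, as for Maged1. Since these genes were chosen for their likeness in the same libraries, a shared order follows from the choice and is no further result. For Nsmce3 the closest was Fbxl12, an F-box gene (0.0315), followed by Abhd13 (0.0435), Ybx2, a germ cell RNA-binding protein gene (0.0462), Atp6v0c (0.0467), Zfp746 (0.0488) and Plekhj1 (0.0516). On the X chromosome the nearest tested rows on either side of Maged1 did not pass. These were Apoo, a mitochondrial cristae gene (log2 fold change 0.18, SE 0.15), Gm14827 (0.07, SE 0.74), Gm5401 (-0.53, SE 0.27) and Gspt2, a translation termination gene (-0.17, SE 0.14).

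**Figure D5:**
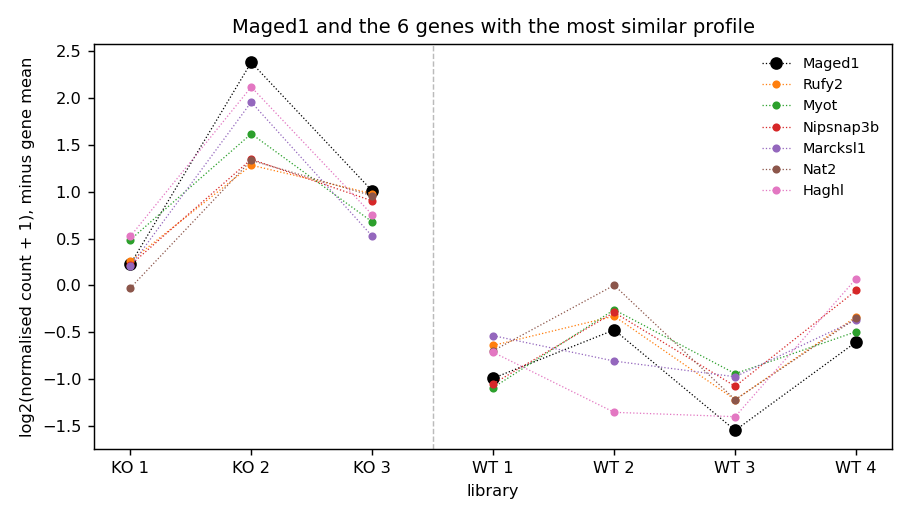
Centred log2(normalised count + 1) of Maged1 in black and of the 6 genes with the most similar values in colour, by library, with dotted lines joining the points of a gene. In every gene KO 2 is the highest library, and KO 3 is above each WT library, a likeness for which the genes were chosen.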

How the data were processed

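The authors deposited 1 normalised signal value per gene and library. The submitters' processing notes name GRCm38 (mm10) as the build, and list STAR, cutadapt, FastQC, DESeq2 and DESeq. They name no read counter. The deposited signal values behave as counts scaled by a factor for each library. For genes with no more than 1000 reads, 100% of values lay within 0.05 of a whole multiple of 1 read. Reads without molecular identifiers are not independent molecules, so limits cover counting error only.

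The main test was limma 3.58.1 (R 4.3.3) on log2(value + 1) with its trend and robust options. A gene was tested if 3 or more libraries had values of 1 or more, and p-values were adjusted by Benjamini-Hochberg. Fold changes are KO over WT and understate the change of low genes. Scripts were tested on simulated data. edgeR 4.0.16 and DESeq2 1.42.0 were run on recovered reads. Other pseudocounts, filters, scalings, a replicate block, a granulosa covariate and leaving out libraries were tried. Exon lengths and overlaps come from GENCODE M21.

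The members and lists were chosen with earlier results of these data known. Named are all members, list genes that were called or else the 2 most abundant of a list, the genes nearest in profile or position to Maged1, those nearest in profile to Nsmce3, and the 3 most abundant markers of a list whose sum differed over 2-fold between libraries. Inha, Inhba, Fshr, Cyp19a1, Nr5a2, Nlrp5, C1qa, Tyrobp, Fcer1g, Trim27, Mfn1, Mfn2, Pja1, Tro, Magea1, Magea2 and Fam189a1 were added after their values were seen.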

Additional observations from a re-analysis of the deposited data

Results flagged for a closer look

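Among the 4 WT libraries, Maged2 in WT 1 stood apart from the others, at 21.0 normalised counts against 0, 0.935 and 0, with a gap of 0.955 of the group's range. WT 1 also had the highest Inha of the WT libraries, 66.7 against 11.9 to 23.4. It had the lowest Cyp19a1 of them, 151 against 171 to 218, and less Fshr than WT 3. The part of granulosa RNA in the Maged2 value of WT 1 was not tested. Magee1 in WT 2 was at 2.13 normalised counts, from 2 reads, while the other WT libraries had 0. In all, 17 groups of WT values were examined. Chance alone marks about 1 in 20 groups of normally distributed values, a share that does not hold for counts near 0. A group with reads in only 1 library is always marked, as Magee1 was, and Magel2, with no WT reads, could not be.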

How the results depend on the processing

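The direction of Maged1 was the same in all 19 alternatives, with log2 fold changes of 1.13 to 2.60. In place of 1291 calls over all genes, limma gave 3 (0 higher in KO) when the granulosa mean was a covariate, 106 (35 higher) without trend or robust estimation and 98 (1 higher) without KO 2 and KO 3, and 594 to 1767 with 1 library left out. The count of called members, reported as 1, was 0 by edgeR (2 at an unadjusted p under 0.05), 0 with the granulosa covariate (0), 0 without trend or robust estimation (2) and 0 without KO 2 and KO 3 (1), and 0 to 2 with 1 library left out. The count over the partner, region and other MAGE lists, which is 5 (Vps35, Washc3, Washc4, Magea10 and Mageb16), was 2 with equal library totals, 2 with the replicate block, 0 with the granulosa covariate (3 at an unadjusted p under 0.05), 0 without trend or robust estimation (8) and 0 without KO 2 and KO 3 (2), and 0 to 5 with 1 library left out. The exact permutation p for the number of granulosa markers above 0 was 0.0571, against 0.0286 for their sum. The causes were not tested, other than that leaving out libraries leaves fewer samples. The granulosa mean of each KO library lay above that of each WT library, so the fit with this covariate separates it poorly from genotype. No pairing by the numbers in the titles was seen: deviations of same-numbered libraries correlated at -0.12, 0.03 and 0.02, against -0.116 to 0.0926 for the others. A pairing that touches few genes could not be seen in this way. With the replicate block 1022 genes were called, and Maged1 was the 1 member called. Maged2 was not tested without KO 2 and KO 3, and Ndn not with a minimum of 10 or without KO 2, KO 3, both of these or WT 1, since they fell below the filter. Ndn, Magee1 and Magel2 rest on so few reads that differences could not be seen at this depth.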
